A study of Mus musculus with 26 samples.

Results

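Transcripts of 9 genes of the TGF-beta pathway were followed across 26 libraries of mouse liver RNA. The genes were chosen by name: the ligands Tgfb1, Tgfb2 and Tgfb3, the receptors Tgfbr1 and Tgfbr2, the latent TGF-beta binding proteins Ltbp1 and Ltbp2, the intracellular inhibitor Smad7 and the membrane decoy receptor Bambi. All 9 were found by their Ensembl ID among the 55642 genes of the count table, and all 9 passed the filter on low counts that 17104 genes passed. The libraries came from 4 groups: homozygous Mtarc1 knockout mice on CDAHFD (n = 8), heterozygous Mtarc1 knockout mice on CDAHFD (n = 7), wildtype mice on CDAHFD (n = 6) and wildtype mice on control chow (n = 5). Here and below n counts libraries, since the titles do not say that samples are separate animals. CDAHFD is a high-fat diet with defined amino acids and no choline that brings on fatty liver with inflammation and scarring, and it was given for 2 weeks. Mtarc1 encodes an outer mitochondrial membrane enzyme that reduces amidoximes. How the knockout was made, the strain, the sex and the age are not given in the sources used here, and knockout livers on chow were not analysed here. A genotype difference that exists without the diet therefore cannot be told apart from a changed response to it.

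TGF-beta is made as an inactive precursor that stays wrapped in its own propeptide. A latent TGF-beta binding protein tethers this latent complex to the extracellular matrix, and integrins or proteases release the ligand. Freed ligand binds the type II receptor, which switches on the type I receptor kinase, and the kinase phosphorylates SMAD transcription factors that enter the nucleus. In liver the pathway is best known for turning hepatic stellate cells into collagen-producing myofibroblasts and for restraining hepatocyte division. Whole liver RNA mixes all of these cells, so a change in the number of cells of a type and a change in RNA per cell cannot be told apart.

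Each library held between 19.73 and 29.91 M estimated counts, where M stands for mega. Levels are given as CPM, a gene's count per mega count of a library size that was scaled by the trimmed mean of M values (TMM). Mtarc1 followed the labels: homozygous livers held 33.4 to 65.2 CPM, heterozygous livers 111 to 208, wildtype CDAHFD livers 193 to 291 and wildtype chow livers 264 to 361. Homozygous livers lay below all others, while heterozygous and wildtype CDAHFD livers overlapped and did not pass the test (log2 fold change -0.55 ± 0.15, adjusted p = 0.569 by edgeR). The 95% interval of that change was -0.85 to -0.25, with an unadjusted p of 0.000904 by edgeR. Hepatocyte markers, a list of 9 genes that includes albumin, summed to between 59700 and 125000 CPM in every library, so the labelled tissue carried its defining transcripts. The labels name each library by a number, and these numbers form a 9000 series (9 libraries) and an 11000 series (17 libraries) that are not said to be batches. Both series hold all groups, but the 9000 series holds 1 chow library. Samples 2 and 3 of the wildtype CDAHFD group, both of the 9000 series, stood apart in the genes described here. Sample 3 was the highest of its group for 7 of the 9 genes, and it was among the highest pair for 8, as sample 2 was for 7. Markers of stellate cells and myofibroblasts summed to 594.6 CPM in sample 2 and 730.4 in sample 3, against 322.1 to 339.5 CPM in the other wildtype CDAHFD livers. This list of 10 genes includes the collagen genes Col1a1 and Col3a1. Values without both libraries, a setting chosen after the data were seen, stand beside the results for the members that moved with them and beside the main gene lists.

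Compared per kb of exon, Tgfb1 was the most abundant ligand transcript and Tgfbr1 the more abundant receptor transcript. In wildtype CDAHFD livers the mean level per kb was 3.05 ± 0.686 CPM (SD, n = 6) for Tgfb1, 0.602 ± 0.267 for Tgfb3 and 0.305 ± 0.121 for Tgfb2. Tgfbr1 stood at 4.84 ± 0.796 CPM per kb and Tgfbr2 at 2.36 ± 0.605. Among the inhibitors Smad7 reached 4.08 ± 0.338 CPM per kb and Bambi 0.815 ± 0.138, while Ltbp2 had 0.697 ± 0.411 and Ltbp1 0.591 ± 0.248. The length used was the union of a gene's annotated exons. With the longest transcript as the length, Tgfb1 stood above Tgfbr1, at 5.97 against 5.49 CPM per kb, since its exon union has 5042 bases and its longest transcript 2573. The order among the 3 ligands was the same with both lengths.

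**Figure D1:**
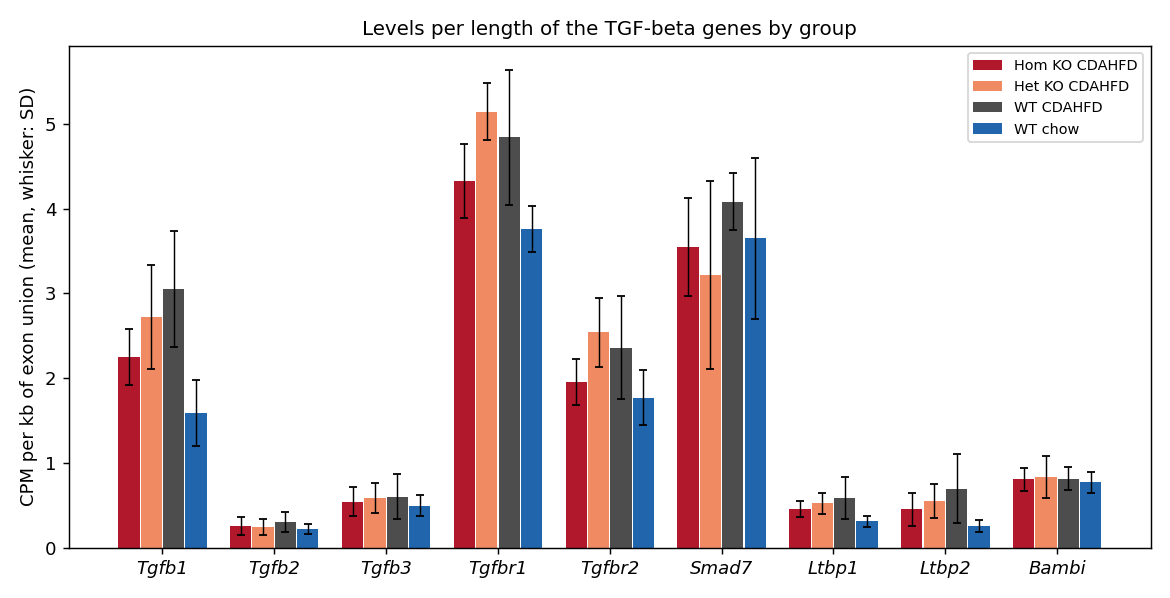
Mean level per kb of exon union in CPM (bars, whiskers are the SD) for the 9 genes in homozygous, heterozygous and wildtype CDAHFD livers and wildtype chow livers (n = 8, 7, 6 and 5). Tgfbr1 and Smad7 stand highest, at 4.84 and 4.08 CPM per kb in wildtype CDAHFD livers, and Tgfb2 lowest, at 0.305.

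The first comparison asks what the diet did in wildtype liver. The main ligand, both receptors and both latent binding proteins were higher on CDAHFD: edgeR's quasi-likelihood test called Tgfb1, Tgfbr1, Tgfbr2, Ltbp1 and Ltbp2 higher at an adjusted p under 0.05, 5 of the 9 genes, where 14.8% of all tested genes were called higher. None of the 9 was called lower. Without wildtype samples 2 and 3 only Tgfb1 passed, where 1857 of 17168 tested genes were called higher, a share near that of the members. Tgfb1 and Ltbp1 stood 1.92-fold higher and Ltbp2 2.74-fold, against 1.29-fold for Tgfbr1 and 1.34-fold for Tgfbr2. Tgfb2, Tgfb3, Smad7 and Bambi did not pass. All 9 fold changes were above 0, with a median of 0.42 on the log2 scale against -0.01 over all tested genes.

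Tgfb1 encodes the main TGF-beta ligand of immune and stromal cells. Its level in wildtype CDAHFD livers ran from 11.1 CPM through a median of 14.9 to 21.1 (n = 6), and the 5 wildtype chow livers had 7.27, 5.75, 7.42, 10.9 and 8.76 CPM. Every CDAHFD liver lay above every chow liver, as it did for 7.95% of all tested genes. The log2 fold change was 0.94 ± 0.18 (SE), with an adjusted p of 0.000246 by edgeR. It stayed between 0.83 and 1.08 with any single library left out. Without samples 2 and 3 it was 0.76 ± 0.18 (adjusted p = 0.00431). Within the 11000 series it was 0.80 ± 0.20 (adjusted p = 0.0153), and in the 9000 series, with 1 chow library, 1.18 ± 0.35 (adjusted p = 0.118).

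Tgfb2 and Tgfb3, the ligands better known from development and from connective tissue, had the lowest counts of the 9 genes. Tgfb2 levels ran from 1.12 through 1.56 to 2.83 CPM in wildtype CDAHFD livers, against 1.52, 1.56, 1.07, 1.46 and 0.739 CPM in chow livers. Tgfb3 levels ran from 1.21 through 1.67 to 3.57 CPM on CDAHFD, against 1.61, 1.66, 1.07, 2.26 and 1.74 CPM on chow. Both genes overlapped between the groups, and samples 2 and 3 held the highest pair of values for each. The log2 fold changes were 0.48 ± 0.31 for Tgfb2 (95% interval -0.16 to 1.12) and 0.29 ± 0.29 for Tgfb3 (-0.30 to 0.89), with adjusted p-values of 0.273 and 0.485 in edgeR. Without samples 2 and 3 they were 0.10 and -0.14.

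Tgfbr1 encodes the type I receptor kinase. It measured 24.9 CPM at the lowest, 30.6 at the median and 38 at the highest in wildtype CDAHFD livers, against 26.5, 22.4, 25.9, 23 and 25.1 CPM in chow livers. Only sample 6 of the CDAHFD livers fell inside the chow range. The log2 fold change was 0.36 ± 0.10 (adjusted p = 0.00687, edgeR), and without samples 2 and 3 it was 0.22 ± 0.09, which did not pass (adjusted p = 0.0983). Tgfbr2 encodes the type II receptor that binds the ligand first. It ran from 13.5 through 17.8 to 28 CPM on CDAHFD, against 15.3, 11.8, 18.6, 14 and 12.6 CPM on chow, so the groups overlapped widely. The log2 fold change of 0.42 ± 0.15 passed narrowly in edgeR (adjusted p = 0.0416). The call was lost when any of 6 single libraries was left out: chow samples 1, 2, 4 and 5 and CDAHFD samples 3 and 4, with values of 0.29 to 0.44. Without samples 2 and 3 the change was 0.30 ± 0.15 (adjusted p = 0.183), and with the sample number as a block the call was lost too. Within the 11000 series neither receptor passed, at 0.23 ± 0.12 for Tgfbr1 (adjusted p = 0.215) and 0.42 ± 0.16 for Tgfbr2 (adjusted p = 0.0888).

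Ltbp1 and Ltbp2 encode matrix proteins of the fibrillin family. Ltbp1 binds latent TGF-beta directly, while Ltbp2 is counted in the family but does not bind latent TGF-beta and is tied to elastic and fibrillin microfibres. Ltbp1 ran from 3.98 through 5.27 to 10.3 CPM in wildtype CDAHFD livers, against 3.54, 2.87, 2.51, 4.22 and 3.38 CPM in chow livers. Ltbp2 ran from 2.77 through 4.48 to 11.5 CPM on CDAHFD, against 1.52, 1.70, 2.24, 2.91 and 2.06 CPM on chow. In both genes samples 2 and 3 stood above all other wildtype CDAHFD livers, and 2 of the other CDAHFD livers fell inside the chow range for Ltbp1 and 1 for Ltbp2. The log2 fold changes were 0.94 ± 0.24 for Ltbp1 (adjusted p = 0.00421) and 1.46 ± 0.36 for Ltbp2 (adjusted p = 0.00348) by edgeR. Without samples 2 and 3 they were 0.50 ± 0.21 (adjusted p = 0.0975) and 0.85 ± 0.33 (adjusted p = 0.0718). Within the 11000 series they were 0.60 ± 0.26 (adjusted p = 0.136) and 0.53 ± 0.36 (adjusted p = 0.356), and in the 9000 series 1.13 ± 0.50 (adjusted p = 0.302) and 2.43 ± 0.57 (adjusted p = 0.0556).

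Smad7 is a SMAD target that blocks the receptors, and Bambi is a receptor-like protein without a kinase that dampens signalling. Smad7 ran from 16.4 through 18.3 to 20.9 CPM in wildtype CDAHFD livers, against 22.6, 13.2, 12, 18.8 and 15.9 CPM in chow livers. All CDAHFD values lay inside the chow range. Bambi ran from 3.29 through 4.25 to 4.85 CPM on CDAHFD, against 3.86, 4.28, 4.70, 3.77 and 3.01 CPM on chow, again nearly the same span. The log2 fold changes were 0.16 ± 0.18 for Smad7 (95% interval -0.21 to 0.53, adjusted p = 0.548) and 0.08 ± 0.19 for Bambi (-0.31 to 0.47, adjusted p = 0.798) by edgeR.

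**Figure D2:**
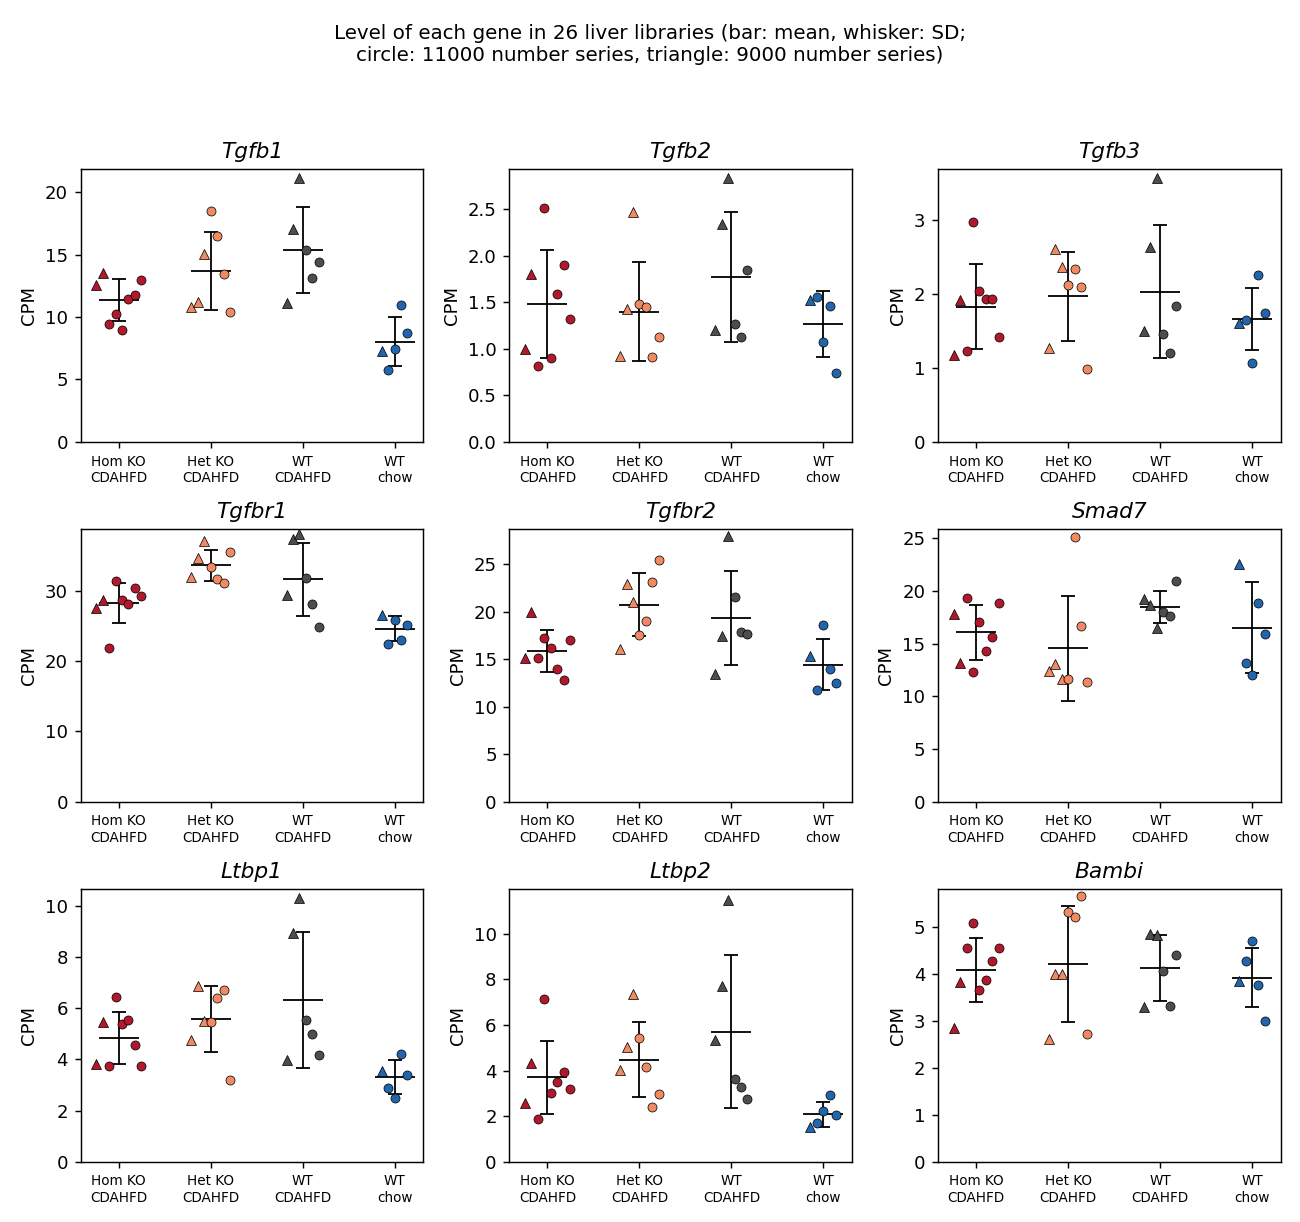
Level of each of the 9 genes in CPM on TMM-scaled library sizes in every library, with group means (bars) and SDs (whiskers). Circles are libraries of the 11000 number series and triangles of the 9000 series. Tgfb1 in wildtype CDAHFD livers (11.1 to 21.1 CPM) lies above all chow livers (5.75 to 10.9 CPM), and the highest wildtype CDAHFD points for Ltbp1 and Ltbp2 (10.3 and 11.5 CPM) come from sample 3.

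Start-site sequences of the genes that moved most on the diet are shown because SMAD factors bind a short DNA box and Ltbp1 has 2 listed start sites. RefSeq's promoter table for GRCm38.p6 held 8 promoters of 6 of the 9 genes, each reaching from 250 bases before to 50 bases after the transcription start. The table's build is older than the one named for the counts, so it gives sequence only. Capitals mark the SMAD box CAGAC on either strand (GTCTG is its reverse complement). The windows are Tgfb1 at chr7:25686752-25687051 (plus strand), Ltbp1 at chr17:75005279-75005578 and chr17:75178531-75178830 (both plus strand), and Ltbp2 at chr12:84876442-84876741 (minus strand), each written 5′ to 3′ along its gene.
Tgfb1: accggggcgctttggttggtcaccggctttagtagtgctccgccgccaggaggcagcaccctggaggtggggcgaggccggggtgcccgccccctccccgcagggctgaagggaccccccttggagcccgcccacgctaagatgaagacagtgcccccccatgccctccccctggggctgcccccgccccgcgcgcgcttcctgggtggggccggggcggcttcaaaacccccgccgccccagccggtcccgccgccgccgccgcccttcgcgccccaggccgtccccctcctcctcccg
Ltbp1, first start: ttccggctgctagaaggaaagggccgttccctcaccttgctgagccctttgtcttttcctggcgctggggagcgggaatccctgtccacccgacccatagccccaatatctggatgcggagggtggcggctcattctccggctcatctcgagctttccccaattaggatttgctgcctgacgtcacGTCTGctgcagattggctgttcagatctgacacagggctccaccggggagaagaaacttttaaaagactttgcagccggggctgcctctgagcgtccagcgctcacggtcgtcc
Ltbp1, second start: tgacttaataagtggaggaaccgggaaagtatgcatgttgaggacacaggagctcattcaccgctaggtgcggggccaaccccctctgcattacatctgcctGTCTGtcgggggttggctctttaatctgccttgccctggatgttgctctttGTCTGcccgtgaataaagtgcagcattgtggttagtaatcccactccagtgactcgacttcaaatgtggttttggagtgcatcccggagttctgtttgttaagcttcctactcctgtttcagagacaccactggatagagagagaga
Ltbp2: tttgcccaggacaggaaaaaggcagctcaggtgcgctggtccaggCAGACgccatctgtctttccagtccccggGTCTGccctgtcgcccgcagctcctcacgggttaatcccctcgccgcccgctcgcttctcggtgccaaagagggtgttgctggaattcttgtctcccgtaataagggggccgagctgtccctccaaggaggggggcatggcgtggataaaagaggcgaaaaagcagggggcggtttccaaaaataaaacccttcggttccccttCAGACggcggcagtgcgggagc
The Tgfb1 window held no CAGAC and was 77% G or C. The first Ltbp1 window held 1 CAGAC, at 64 bases before the start, the second held 2, and the Ltbp2 window held 3. Tgfb2, Tgfbr2 and the second of 2 Tgfbr1 starts, not printed here, held 2, 1 and 1, and the first Tgfbr1 start held 0. Of all 32851 promoters of that length in the table, 49.6% held at least 1 CAGAC, so the matches are a description of letters and not of binding. The palindrome GTCTAGAC, found in 0.213% of all promoters, and the AP-1 motif TGANTCA, found in 7.81%, were searched on both strands and matched none of the 8 windows.

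The second comparison asks how loss of both Mtarc1 copies altered these genes on the diet. No member passed in homozygous against wildtype CDAHFD livers: edgeR called 0 of 9, DESeq2 0 of 9 and limma voom 0 of 9. Across all tested genes edgeR called 0.00585%, which is Mtarc1 itself, DESeq2 called 46 genes, and 1705 genes had an unadjusted p under 0.05 in edgeR. All 9 fold changes lay below 0, with a median of -0.26 against 0.01 over all tested genes. Without wildtype samples 2 and 3, 5 of the 9 lay below 0 and the median was -0.01. Within the 11000 series 3 of 9 lay below 0, with Tgfbr1 at 0.00 on the upper side, and within the 9000 series, which holds both samples, all 9 did. This comparison shares the wildtype CDAHFD libraries with the diet comparison, so high values in those libraries enter both with opposite signs.

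Tgfb1, Tgfbr2 and Ltbp2 were the 3 members with an unadjusted p under 0.05 in homozygous against wildtype CDAHFD livers. Tgfb1 ran from 8.99 through 11.6 to 13.5 CPM in homozygous livers (n = 8), against 11.1, 14.9 and 21.1 CPM for the same points of the wildtype livers (n = 6). The log2 fold change was -0.44 ± 0.15 (adjusted p = 0.293, edgeR). Without wildtype samples 2 and 3 it was -0.25 ± 0.16, in the 11000 series -0.40 ± 0.19 and in the 9000 series -0.33 ± 0.25, so Tgfb1 kept its sign in all of these fits. Tgfbr2 ran from 12.8 through 15.7 to 19.9 CPM in homozygous livers, against 13.5, 17.8 and 28 CPM in wildtype CDAHFD livers, a log2 fold change of -0.28 ± 0.13 (adjusted p = 0.486). It was -0.14 without wildtype sample 3, -0.15 ± 0.14 without samples 2 and 3, -0.30 ± 0.15 in the 11000 series and -0.16 ± 0.29 in the 9000 series. Ltbp2 ran from 1.87 through 3.33 to 7.15 CPM in homozygous livers, against 2.77, 4.48 and 11.5 CPM in wildtype CDAHFD livers, a log2 fold change of -0.62 ± 0.30 (adjusted p = 0.484). Groups overlapped for all 3 genes. For Ltbp2 the change was -0.01 ± 0.29 without samples 2 and 3, 0.24 ± 0.33 in the 11000 series and -1.23 ± 0.38 in the 9000 series, where it did not pass (adjusted p = 0.39).

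The other 6 members had no unadjusted p under 0.05 in homozygous against wildtype CDAHFD livers. Ltbp1 ran from 3.73 through 4.96 to 6.44 CPM in homozygous livers, against 3.98, 5.27 and 10.3 CPM in wildtype livers, with a log2 fold change of -0.39 ± 0.20 that became 0.05 ± 0.19 without samples 2 and 3. Tgfbr1 ran from 21.8 through 28.7 to 31.3 CPM, against 24.9, 30.6 and 38 CPM, with -0.16 ± 0.09, and -0.02 ± 0.08 without samples 2 and 3. These spans overlapped in most of their length. The log2 fold changes of Tgfb2, Tgfb3, Smad7 and Bambi were -0.26 ± 0.27, -0.15 ± 0.25, -0.20 ± 0.16 and -0.02 ± 0.17, with 95% intervals that all spanned 0. For Bambi the interval was -0.36 to 0.33, and for Smad7 it was -0.53 to 0.12.

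Loss of 1 Mtarc1 copy gave no call in heterozygous against wildtype CDAHFD livers, where edgeR called 0 of 9 members and 0% of all tested genes. Of all genes 1444 had an unadjusted p under 0.05, and DESeq2 called 2 genes and 0 members. The only member with an unadjusted p under 0.05 was Smad7, which ran from 11.3 through 12.4 to 25.1 CPM in heterozygous livers (n = 7), against 16.4, 18.3 and 20.9 CPM in wildtype CDAHFD livers. Its log2 fold change was -0.35 ± 0.16 (adjusted p = 0.569, edgeR). Heterozygous sample 5, at 25.1 CPM, lay above every wildtype CDAHFD liver, and 5 of the 7 heterozygous livers lay below them all. The receptors had log2 fold changes of 0.09 ± 0.09 for Tgfbr1 (95% interval -0.10 to 0.27) and 0.10 ± 0.14 for Tgfbr2 (-0.18 to 0.39). Tgfb1 stood at -0.17 ± 0.15, Ltbp1 at -0.19 ± 0.21 and Ltbp2 at -0.35 ± 0.31, and these became 0.02, 0.25 and 0.25 without wildtype samples 2 and 3.

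Homozygous livers were also set against heterozygous livers, a comparison of group means that hold no wildtype library. Wildtype libraries enter it only through the shared spread, scaling and filter. Here too edgeR called 0 of 9 members, and 0.00585% of all tested genes, again Mtarc1. DESeq2 called 15 genes and 0 members, and 1219 genes had an unadjusted p under 0.05. The lowest unadjusted p-values among the members were those of the receptors. Tgfbr1 ran from 21.8 through 28.7 to 31.3 CPM in homozygous livers, against 31.2, 33.4 and 37 CPM in heterozygous livers, with a log2 fold change of -0.25 ± 0.08 (adjusted p = 0.468, edgeR). Only homozygous sample 4 exceeded the lowest heterozygous liver. Tgfbr2 ran from 12.8 through 15.7 to 19.9 CPM, against 16.1, 21 and 25.4 CPM, with -0.38 ± 0.13 (adjusted p = 0.483). Within the 11000 series the values were -0.22 ± 0.10 for Tgfbr1 and -0.47 ± 0.13 for Tgfbr2, and within the 9000 series -0.30 ± 0.15 and -0.19 ± 0.29. Tgfb1 followed at -0.27 ± 0.15 and was -0.45 ± 0.17 in the 11000 series but 0.07 ± 0.25 in the 9000 series.

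**Figure D3:**
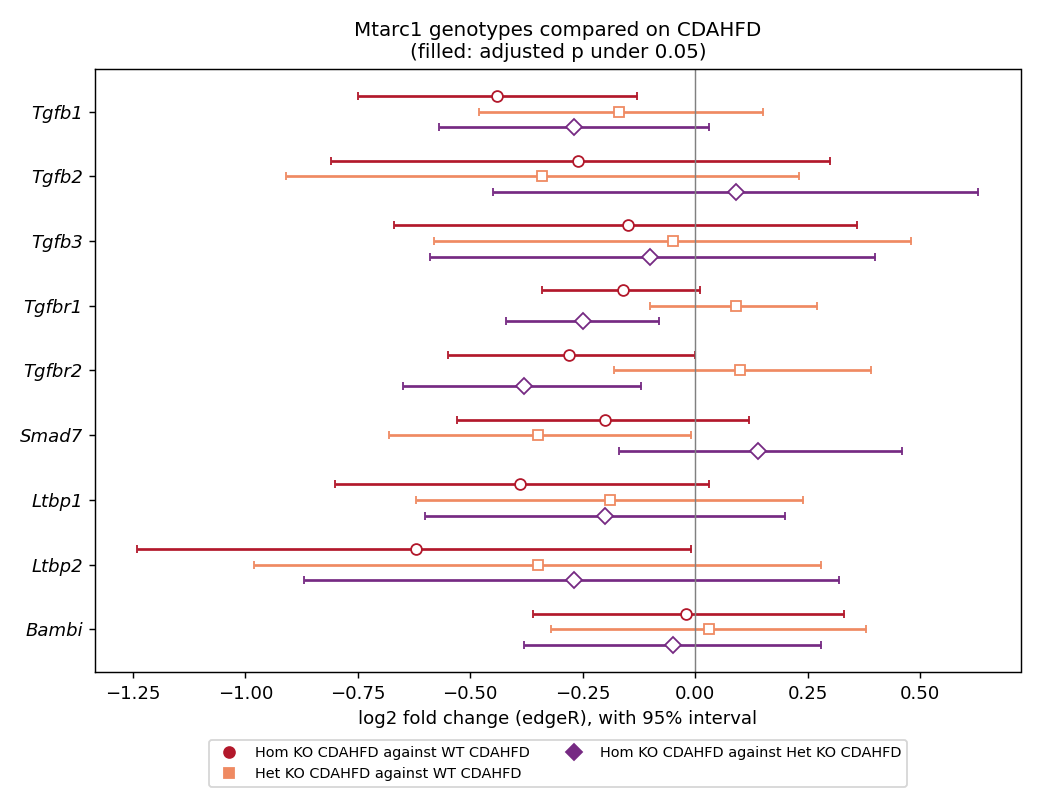
Log2 fold changes (edgeR, points, with 95% intervals) of the 9 genes for homozygous and heterozygous against wildtype CDAHFD livers and for homozygous against heterozygous livers. No point is filled, since no member had an adjusted p under 0.05, and the lowest point is Ltbp2 in homozygous against wildtype livers at -0.62.

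**Figure D4:**
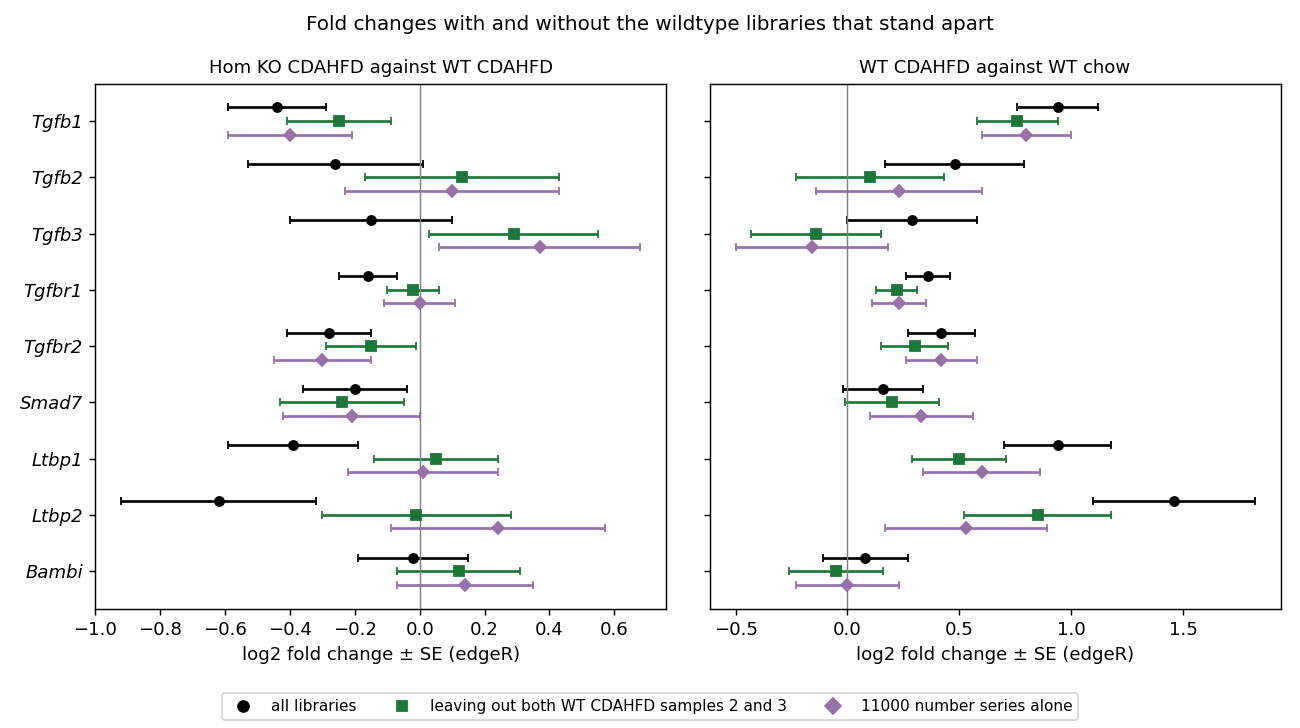
Log2 fold changes ± SE (edgeR) of the 9 genes with all libraries, without wildtype CDAHFD samples 2 and 3, and in the 11000 number series alone. On the left, homozygous against wildtype CDAHFD, Ltbp2 moves to -0.01 without the samples, and on the right, wildtype CDAHFD against chow, Tgfb1 is at 0.76.

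Knockout livers on the diet were also set against wildtype chow livers, where diet and genotype differ together and the 5 chow libraries are shared with the diet comparison. In heterozygous against wildtype chow livers edgeR called Tgfb1, Tgfbr1, Tgfbr2, Ltbp1 and Ltbp2 higher, 5 of 9, where 19.3% of all tested genes were called higher. The log2 fold changes were 0.77 ± 0.17 for Tgfb1, 0.45 ± 0.10 for Tgfbr1, 0.52 ± 0.15 for Tgfbr2, 0.75 ± 0.23 for Ltbp1 and 1.10 ± 0.35 for Ltbp2, with adjusted p-values between 0.000751 and 0.0159. Wildtype CDAHFD samples 2 and 3 enter this comparison through the shared spread, scaling and filter, and all 5 genes passed without them. Within the 11000 series all but Ltbp2 (0.75 ± 0.33, adjusted p = 0.105) passed, and within the 9000 series, with 1 chow library, 0 of 9 did. For Tgfbr1 every heterozygous liver (31.2 to 37 CPM) lay above every chow liver (22.4 to 26.5 CPM), as happened for 7.58% of all tested genes. Tgfb2, Tgfb3, Smad7 and Bambi did not pass, at 0.14 ± 0.31, 0.24 ± 0.28, -0.19 ± 0.17 and 0.11 ± 0.18. Without heterozygous sample 5, the highest of its group, Smad7 was called lower.

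In homozygous against wildtype chow livers edgeR called only Tgfb1 higher, 1 of 9, where 12.3% of all tested genes were called higher. Without wildtype CDAHFD samples 2 and 3, 3 of 9 passed here, while 1 of 9 passed in wildtype CDAHFD against chow livers. The counts of these comparisons therefore do not rank the groups. Tgfb1 averaged 11.4 ± 1.66 CPM in homozygous livers (SD, n = 8) and 8.03 ± 1.95 CPM in chow livers (n = 5), a log2 fold change of 0.50 ± 0.17 (adjusted p = 0.0298). The call was lost without chow sample 1, 2 or 3 or homozygous sample 2 or 8, with values of 0.40 to 0.48. It was 0.40 ± 0.18 (adjusted p = 0.128) within the 11000 series and 0.84 ± 0.36 (adjusted p = 0.483) within the 9000 series. Ltbp1 and Ltbp2 stood at 0.55 ± 0.23 (adjusted p = 0.0795) and 0.83 ± 0.34 (adjusted p = 0.0802), Tgfbr1 at 0.20 ± 0.09 (adjusted p = 0.121) and Tgfbr2 at 0.14 ± 0.14 (adjusted p = 0.51). The count depended on the fit: DESeq2 and the sample-number block each called 2 members (Tgfb1 and Ltbp2), a fit of these groups alone 3 (Tgfb1, Ltbp1 and Ltbp2), and library totals without a scaling factor 4 (those 3 and Tgfbr1). With library totals alone the median of all tested genes moved to 0.20, so those 4 calls include that shift.

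**Figure D5:**
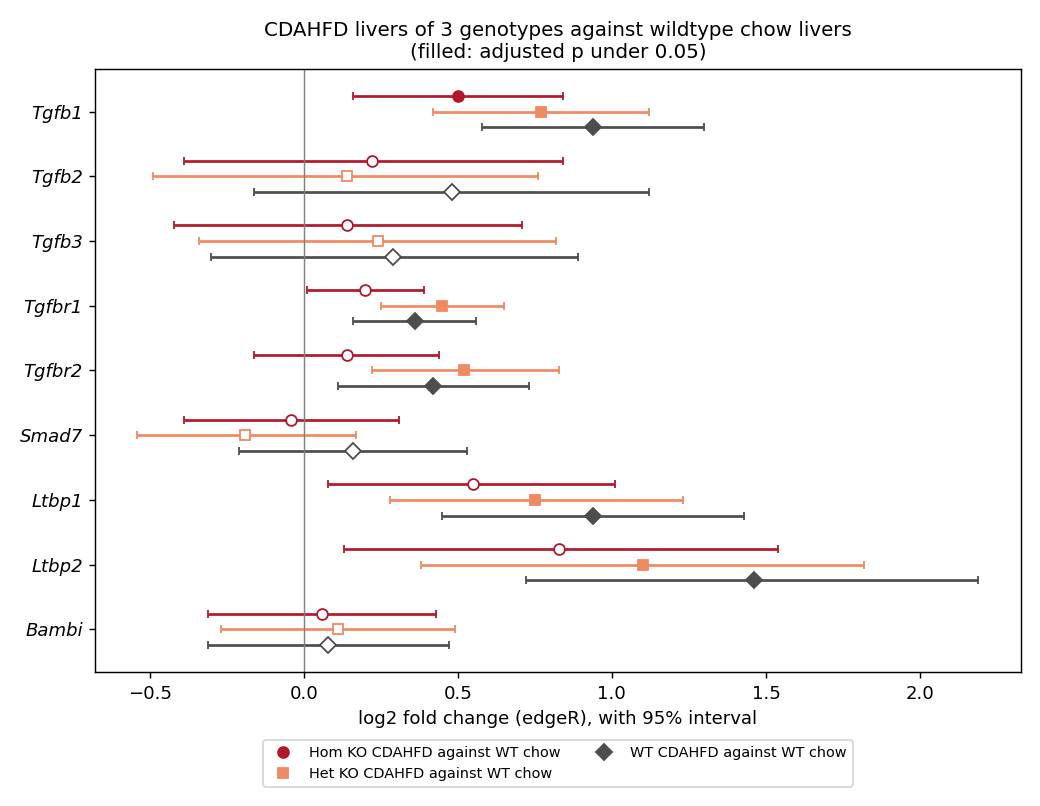
Log2 fold changes (edgeR, points, with 95% intervals) of the 9 genes in homozygous, heterozygous and wildtype CDAHFD livers, each against the same wildtype chow livers. Filled points passed at an adjusted p under 0.05. Tgfb1 is filled in all 3 comparisons, at 0.50, 0.77 and 0.94, and Smad7 and Bambi in none.

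By group mean, 4 members kept the same order: Tgfb1, Tgfb3, Ltbp1 and Ltbp2 were highest in wildtype CDAHFD, then heterozygous, homozygous and chow livers. Ltbp1, for example, averaged 4.83 ± 1.02 CPM in homozygous, 5.57 ± 1.29 in heterozygous, 6.32 ± 2.65 in wildtype CDAHFD and 3.30 ± 0.654 in chow livers. Neighbouring CDAHFD groups in this order differed by less than the test could call. The wildtype place at the top rested on wildtype CDAHFD samples 2 and 3. Without them the log2 fold changes of all 4 members in heterozygous against wildtype CDAHFD livers were positive. By median, Tgfb1 and Ltbp2 kept the order. Median Tgfb3 was 2.13 CPM in heterozygous and 1.67 CPM in wildtype CDAHFD livers, and median Ltbp1 5.52 and 5.27 CPM. The receptors and Bambi had their highest mean in heterozygous livers, at 33.6 ± 2.20 CPM for Tgfbr1, 20.8 ± 3.33 for Tgfbr2 and 4.22 ± 1.24 for Bambi. The order of Smad7 depended on the scaling, with chow livers above both knockout groups on TMM-scaled sizes and below them on unscaled totals. The group means of Bambi were the closest to each other, at 4.09, 4.22, 4.13 and 3.92 CPM in homozygous, heterozygous, wildtype CDAHFD and chow livers.

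Other genes of the pathway are given by list for wildtype CDAHFD against chow, with named genes being those with the lowest p that passed. In that comparison edgeR called 2537 of all 17104 tested genes higher and 2093 lower. Of genes that hold or release latent TGF-beta, 8 of 14 tested were higher and 0 lower, with a median log2 fold change of 0.40. Tgm2, a transglutaminase that crosslinks the latent complex into matrix, averaged 187 CPM on CDAHFD and 102.5 on chow (0.87 ± 0.16, adjusted p = 0.000253). Itgb5, the beta chain of an integrin that can activate TGF-beta, changed by 0.59 ± 0.13 (adjusted p = 0.00103), and Nrros, which anchors latent TGF-beta on macrophages and microglia, by 0.72 ± 0.17 (adjusted p = 0.00199). Without wildtype samples 2 and 3, 4 of the 14 passed, and 2 passed within either number series. Of 9 tested co-receptors and related receptors, 2 were higher and 1 lower: the endothelial type I receptor Acvrl1 (0.67 ± 0.12, adjusted p = 0.000157), the activin type I receptor Acvr1b (0.36 ± 0.11, adjusted p = 0.0146) and, lower, the activin type II receptor Acvr2b (-0.52 ± 0.19, adjusted p = 0.0398). The Acvr2b call was lost without chow sample 4 or 5, without CDAHFD sample 1, 3, 4, 5 or 6 (adjusted p up to 0.119), with the sample-number block and with library totals alone.

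The SMAD transducers, 7 genes, had 0 calls in either direction by edgeR, 0 at an unadjusted p under 0.05 and 0 by DESeq2, with a median of 0.04. Of 12 tested negative regulators, 2 were higher and 1 lower, shares near those of all tested genes (2537 of 17104 higher, 2093 lower). Fstl3, a secreted activin inhibitor, changed by 1.17 ± 0.30 (adjusted p = 0.00463), Smad6, the inhibitory SMAD of the BMP branch, by 0.43 ± 0.14 (adjusted p = 0.0197), and Chrd, a secreted BMP antagonist, by -0.70 ± 0.16 (adjusted p = 0.00143). Of 12 BMP and activin ligands, 2 were higher, again near the share of all tested genes. They were the activin subunits Inhbe (0.90 ± 0.18, adjusted p = 0.000481) and Inhbb (0.95 ± 0.25, adjusted p = 0.00576). Of 6 BMP responsive genes 1 was lower, near the share of all tested genes. It was Id3, an inhibitor of helix-loop-helix factors, at 54.65 CPM on CDAHFD and 99.32 CPM on chow (-0.86 ± 0.26, adjusted p = 0.014). The Smad6 call was lost without chow sample 4 or 5 (adjusted p up to 0.0752) or without wildtype samples 2 and 3, and the Id3 call without chow sample 4 (-0.59, adjusted p = 0.0859).

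Genes known to respond to TGF-beta had the highest median of these lists. Over all tested genes 14.8% were called higher in wildtype CDAHFD against chow livers. On CDAHFD 15 of 21 tested were higher and 0 lower, with a median of 1.30, and 14 passed without wildtype samples 2 and 3, 11 within the 11000 series and 8 within the 9000 series. The collagen genes Col3a1 and Col1a1 averaged 191.3 and 112.7 CPM in wildtype CDAHFD livers, against 43.88 and 18.58 CPM in chow livers, with log2 fold changes of 2.12 ± 0.22 and 2.60 ± 0.28. Tagln, an actin-binding protein of contractile cells, averaged 29.07 CPM on CDAHFD and 5.998 on chow (2.28 ± 0.24). Adjusted p-values of the 3 genes lay between 4.01e-07 and 6.06e-07 in edgeR. In homozygous against wildtype CDAHFD livers edgeR called 0 of the 21. Of these 13 had an unadjusted p under 0.05, where 1705 of all 17104 tested genes had, and 18 lay below 0 (median -0.53). DESeq2 called 4 lower, and edgeR called 2 lower without wildtype sample 4. Without wildtype samples 2 and 3 it called 0, with 5 at an unadjusted p under 0.05, against 788 of 17168 genes. Of the 21, 18 again lay below 0, with a median of -0.22. Tagln averaged 14.37 CPM in homozygous and 29.07 CPM in wildtype CDAHFD livers (-1.02 ± 0.20, adjusted p = 0.103, edgeR). Every homozygous liver lay below every wildtype CDAHFD liver for Tagln, as happened for 0.0877% of all tested genes. The Tagln change was -0.51 ± 0.15 (adjusted p = 0.984) without wildtype samples 2 and 3.

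Markers of other cell types were counted in the same fits. In wildtype CDAHFD against chow livers edgeR called 5 of 10 markers of stellate cells and myofibroblasts and 10 of 10 macrophage markers higher, where 14.8% of all tested genes were. It called 0 of 10 endothelial markers, none of which had an unadjusted p under 0.05. The stellate calls were Col1a1, Col3a1, Acta2, Pdgfrb and Ngfr, while Lrat, Reln, Des, Hand2 and Rgs5 did not pass. Col3a1 and Col1a1, at means of 191.3 and 112.7 CPM in wildtype CDAHFD livers, held most of the summed stellate level given below. The calls were 4 of 10 stellate, 9 of 10 macrophage and 0 of 10 endothelial markers without wildtype samples 2 and 3. The stellate and myofibroblast markers, of which Acta2, Col1a1 and Col3a1 are also on the TGF-beta responsive list, summed to 232 to 324 CPM in homozygous, 279 to 455 in heterozygous, 322 to 730 in wildtype CDAHFD and 149 to 178 in chow livers. Macrophage markers summed to 368 to 653, 485 to 719, 504 to 944 and 228 to 416 CPM in the same groups. Endothelial markers overlapped, at 188 to 318, 160 to 337, 266 to 325 and 250 to 329 CPM. Of 9 hepatocyte markers 4 were lower in wildtype CDAHFD than in chow livers, where 2093 of 17104 tested genes were. Without wildtype samples 2 and 3, 2 of 9 were lower, where 1296 of 17168 tested genes were. Neutrophil markers summed to at most 9.8 CPM. Ly6g was at 0 in every chow library, averaged at most 0.029 CPM in the CDAHFD groups and was not tested. On the diet 2 of 3 tested neutrophil markers were higher, and 0 without wildtype samples 2 and 3. Bile duct markers (1 of 5 tested higher) summed to 59.4 to 149, 69.8 to 126, 86.2 to 198 and 64.8 to 98.7 CPM in the same groups. Spp1, the gene called, held most of this sum, at a mean of 102.8 CPM in wildtype CDAHFD livers. Of the 5 tested, 3 had a log2 fold change below 0 on the diet, and 0 passed without wildtype samples 2 and 3. Markers of lymphocytes, platelets and mesothelium summed to at most 18.9 CPM in any library, with 1 of 7 higher, 1 of 4 higher and 1 lower, and 0 of 5 called on the diet. In homozygous against wildtype CDAHFD livers edgeR called no stellate or macrophage marker, with 7 and 6 of 10 at an unadjusted p under 0.05, where 1705 of 17104 tested genes were. All 10 fold changes of each list lay below 0, with medians of -0.39 for stellate and -0.48 for macrophage markers. The 10 endothelial markers also all lay below 0, with a median of -0.22 and 0 at an unadjusted p under 0.05. With wildtype samples 2 and 3 left out the medians were -0.26 for stellate, -0.29 for macrophage and -0.28 for endothelial markers. All 10 of each list again lay below 0. In that fit 3 stellate, 2 macrophage and 1 endothelial marker had an unadjusted p under 0.05, against 788 of 17168 genes. The part of these cell types in the members' levels was not tested.

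For the 5 members called on the diet, the genes with the most similar profile over the 26 libraries were searched among 13937 genes with a mean of at least 1 CPM. Likeness was the root-mean-square difference of log2 CPM after centring each gene, so a smaller value is closer. Tgfb1 lay nearest to Cd86, a costimulatory protein of antigen-presenting cells (0.16), and to Oxct1, a ketone body enzyme (0.18), where the median gene lay at 0.50. Ltbp1 lay nearest to the collagen VI genes Col6a1 and Col6a2 (both 0.23, median gene 0.54), and Ltbp2 to elastin, Eln, and Col6a3 (both 0.35, median gene 0.74). Tgfbr1 lay nearest to Picalm and Tns3 (both 0.13, median gene 0.35) and Tgfbr2 to Capza2 (0.14) and Tns3 (0.15, median gene 0.41). The profiles share the libraries and the diet contrast, so these values describe likeness and are not a test.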

How the data were processed

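Total RNA from mouse liver was extracted with a column kit and made into libraries with the NEBNext Ultra II kit, per the labels' protocols. The authors deposited estimated counts per gene for 26 libraries, of which 54.4% of values above 0 were whole. Tools named in the submitters' processing notes are cutadapt 3.5 and Salmon 1.4.0, and the builds GRCm39 and mm39; the sources used here do not give strand use. Groups came from the titles, which do not say that samples are separate animals, so p-values cover only the spread among these samples, which may be technical.

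Symbols came from GENCODE's GRCm38 annotation (51475 of 55642 IDs, 92.5%), used with RefSeq for names and lengths only. After rounding of the estimated counts, edgeR 4.0.16 was run in R 4.3.3 (TMM, filterByExpr, robust quasi-likelihood test, all 26 libraries and 4 groups, Benjamini-Hochberg over 17104 genes). The procedure was tested on simulated data with the same spread for all genes and no library that stood apart, unlike these data. A change was called at an adjusted p under 0.05, and fold changes are log2 with an SE from the F statistic. CPM is on TMM-scaled sizes. The common dispersion gave a biological coefficient of variation of 21.5%. Chi-square per degree of freedom within groups was 15.35 to 116.72 over 74 pairs, far above sampling noise, so each library was counted as 1 sample.

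Alternatives were other scalings, DESeq2 1.42.0, limma 3.58.1 voom, no filter, fewer libraries, the number series and the sample number as a block. Between same-numbered libraries of different groups, 15 of 34 correlations exceeded 0.1 (range -0.37 to 0.32). Differently numbered libraries were not compared in this way, so these values cannot decide whether samples were paired. Members and lists were chosen with earlier results of these data known. Named pathway genes were at most 3 per list, those with the lowest p on the diet that passed.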

Additional observations from a re-analysis of the deposited data

Results flagged for a closer look

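Single libraries far from the rest of their group were looked for in 40 sets, the 4 groups of the 9 genes and of Mtarc1. The gap of the highest or lowest library to its neighbour exceeded Dixon's 95% critical value in 4 of them, and chance gives about 1 in 20.

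Tgfb2 was at 2.47 CPM in heterozygous sample 3, where the next heterozygous liver had 1.48 CPM. Tgfbr1 was at 21.8 CPM in homozygous sample 3, the lowest of its group, with the next at 27.6 CPM. Without that library Tgfbr1 passed in homozygous against wildtype chow livers, at 0.24 on the log2 scale (adjusted p = 0.043 by edgeR). Smad7 was at 25.1 CPM in heterozygous sample 5, with the next at 16.6 CPM. Ltbp2 was at 7.15 CPM in homozygous sample 4, with the next at 4.34 CPM, and that library was the highest of its group for 6 of the 9 genes.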

How the results depend on the processing

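In wildtype CDAHFD against chow, 4 or 5 members passed under every scaling, tool, filter and fit of all series and with any 1 library left out. Leaving out wildtype CDAHFD samples 2 and 3 together, or keeping the 11000 series alone, left 1 (Tgfb1), and the 9000 series alone, with 1 chow library, left 0. In heterozygous against wildtype chow the 9000 series alone left 0 of 5. In homozygous against wildtype chow the count of 1 became 4 with library totals, 3 with these groups alone, 3 without wildtype samples 2 and 3, 2 with DESeq2, 2 with the replicate block, 0 in either number series alone, and 0 to 2 with single libraries left out. The replicate block lost Tgfbr2 on the diet, which left 4, gained Ltbp2 in homozygous against wildtype chow and changed no other call of a member. The series fits and those without libraries hold fewer samples; otherwise the cause was not tested. Library totals alone moved the median of all genes to 0.22 on the diet. Without wildtype samples 2 and 3, 1857 of 17168 tested genes were called higher on the diet, a share near that of the members.

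Fold changes of genes that were not called turned sign in some fits. In the 11000 series alone these were Tgfb3 on the diet (-0.16); in homozygous against wildtype CDAHFD Tgfb2 (0.10), Tgfb3 (0.37), Ltbp1 (0.01), Ltbp2 (0.24) and Bambi (0.14); in heterozygous against wildtype CDAHFD Tgfb1 (0.04), Tgfb3 (0.33), Ltbp1 (0.16) and Ltbp2 (0.22); and in homozygous against heterozygous Tgfb3 (0.04) and Ltbp2 (0.02). In the 9000 series alone they were Smad7 on the diet (-0.32), Tgfbr1 (-0.01) and Bambi (-0.28) in heterozygous against wildtype CDAHFD, and Tgfb1 (0.07) and Tgfb2 (-0.20) in homozygous against heterozygous. Without wildtype samples 2 and 3 they were Tgfb3 (-0.14) and Bambi (-0.05) on the diet; Tgfb2 (0.13), Tgfb3 (0.29), Ltbp1 (0.05) and Bambi (0.12) in homozygous against wildtype CDAHFD; and Tgfb1 (0.02), Tgfb2 (0.04), Tgfb3 (0.39), Ltbp1 (0.25) and Ltbp2 (0.25) in heterozygous against wildtype CDAHFD. With voom Bambi was -0.01 in heterozygous against wildtype CDAHFD. With single libraries left out, Tgfb3 ran from -0.29 to 0.08 and Bambi from -0.07 to 0.04 in homozygous against wildtype CDAHFD; Tgfb3 from -0.17 to 0.18, Ltbp1 from -0.29 to 0.01 and Bambi from -0.05 to 0.12 in heterozygous against wildtype CDAHFD; and Tgfb2 from -0.06 to 0.29 and Bambi from -0.13 to 0.04 in homozygous against heterozygous. Unscaled totals moved 1 of 36 group means by more than its SD, and the longest transcript as length 11 of 36. Tgfb2 and Tgfb3, with group means of 1.27 to 2.04 CPM, had SEs of 0.24 to 0.31 and Ltbp2 of 0.29 to 0.36, so changes of the size called in the receptors were not detectable for these genes; the part of depth in these errors was not tested.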
